A study of Mus musculus with 16 samples.

Results

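The genes described here encode 7 proteins of focal adhesions and of the actin bundles attached to them: Vcl, Zyx, Flna, Actn1, Tagln2, Cnn2 and Csrp1. They were chosen by name, with earlier results of these data known. They are 7 of the 12100 genes of the deposited table, each with 1 value in each of the 16 libraries. Focal adhesions are plaques of many proteins that tie integrins, the receptors for extracellular matrix, to actin filaments inside the cell. In fibroblasts the filaments are crosslinked and bundled into stress fibres, whose tension is passed through the plaque to the matrix. TGFβ is known to bring fibroblasts towards a contractile, stress-fibre-rich state, and many genes of this machinery are known targets of serum response factor (SRF), which reads the pool of free actin through its cofactors of the MRTF family.

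RNA was measured by poly(A)-selected, stranded sequencing in mouse embryo fibroblasts with 4 states of Arkadia, the ubiquitin ligase encoded by Rnf111 that acts in TGFβ signalling. WT cells were Ark+/+, null cells were Ark-/-, and the other lines were null cells infected with a retrovirus for wild-type Arkadia (rvWT, labelled rvCAG-ArkWT) or for the sim mutant (rvArksim, called sim here). The series asks what Arkadia does in the transcriptional response to TGFβ, which was given at 2.5 ng/ml. WT and null cells were sampled at 0, 1, 4 and 16 h (set A by library name, 8 libraries), and rvWT and sim cells at 0, 1 and 4 h beside null cells at 0 and 1 h (set B, 8 libraries). The design text names a pair of sequencing batches without listing their libraries. All set B lines lack endogenous Arkadia, the CAG promoter drove Arkadia together with EGFP in the infected cells, and the null cells carried no retrovirus. An empty-vector line was not analysed here, so the effect of infection and that of Arkadia cannot be told apart in that set. The WT and null cells are separate fibroblast isolates, and the number of animals, clones or cultures behind them is not given in the sources used here. Each line had 1 library per time and set, so every p-value below reflects scatter among these 16 libraries, part of which may be technical.

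Rnf111 stood at 14.5 to 15.1 FPKM in WT, at 0.121 to 0.198 in null cells of set A and at 0.435 to 0.526 in null cells of set B. It reached 103 to 126 FPKM in rvWT and 56.0 to 62.1 in sim, so both infected lines were above the WT level. FPKM are fragment numbers relative to the length of the transcript and the total of mapped fragments. Their sum per library ran from 397019 to 481970, and the read depth is unknown. Of 10 fibroblast markers 8 were in the table, and their summed level was 1815 to 2322 FPKM in WT against 5494 to 7916 in the other lines. S100a4, at 65.9 to 3453 FPKM over the libraries, had the widest range among them. Epithelial markers (4 of 8 in the table) summed to 272 to 523 FPKM in WT and to 10.7 to 42.4 elsewhere, and Krt19 alone, at up to 519 FPKM, made up the high WT sums. Smooth muscle markers (8 of 9 in the table) summed to 1017 to 3953 FPKM, almost all of it Acta2 and Tagln, while Myh11, the myosin that defines smooth muscle, was at 0.408 to 1.02. Endothelial, haematopoietic and skeletal muscle markers summed to at most 13.5, 17.7 and 27.1 FPKM. In bulk RNA, fewer cells of a type and less RNA per cell cannot be told apart.

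Promoter sequence is shown first because most of the 7 genes rose together after TGFβ. It is given for the 2 genes with a CArG box and for Zyx and Tagln2, which held matches to several motifs. The windows are RefSeq entries of build GRCm38.p6, from 250 bases before to 50 after a gene's start, and all 7 genes matched, Csrp1 with 2 windows. The build is newer than the mm9 of the deposited values, so these coordinates belong to GRCm38 alone. Capitals mark matches to short motifs, searched on both strands: the CArG box bound by SRF, the SMAD element CAGAC, which reads GTCTG on the other strand, the SMAD GC element GGCGCC, the TEAD element GGAATG, which reads CATTCC on the other strand, and the AP-1 element TGANTCA. No matches overlapped.
Vcl, chr14:20929148-20929210, plus strand: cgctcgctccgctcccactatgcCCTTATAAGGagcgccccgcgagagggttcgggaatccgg
Cnn2, chr10:79988514-79988583, plus strand: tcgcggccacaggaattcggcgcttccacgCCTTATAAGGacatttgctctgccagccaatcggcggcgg
Zyx, chr6:42349677-42349837, plus strand: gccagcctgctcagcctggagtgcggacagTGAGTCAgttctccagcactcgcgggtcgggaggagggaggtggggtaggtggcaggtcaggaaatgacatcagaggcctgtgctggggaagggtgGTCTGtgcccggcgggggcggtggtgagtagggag
Tagln2, chr1:172500066-172500260, plus strand: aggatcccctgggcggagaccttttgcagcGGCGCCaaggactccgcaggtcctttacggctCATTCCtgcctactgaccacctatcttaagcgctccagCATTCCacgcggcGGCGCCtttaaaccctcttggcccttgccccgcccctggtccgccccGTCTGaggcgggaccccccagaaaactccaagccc

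Vcl and Cnn2 held the same 10 letters, CCTTATAAGG, a CArG box. Its first base lay at -227 from the start in Vcl and at -56 in Cnn2. A CArG box was found in 2 of the 7 genes and in 1.63% of all 32851 windows. Vcl also held a TEAD match at -143 and a SMAD GC match at -15, outside the stretch shown. In Zyx the AP-1 match lay at -121 and the SMAD match at -25. Tagln2 held SMAD GC matches at -150 and -67, TEAD matches at -118 and -80 and a SMAD match at -20. However, the start of its deposited transcript lies 199 bases from the gene start that these positions are counted from. Over the 7 genes the SMAD element was found in 3, the SMAD GC element in 2, the TEAD element in 3 and the AP-1 element in 1, against 49.6%, 11.9%, 14.7% and 7.81% of all windows. Over the 11236 windows of measured genes the shares were 46.9%, 21.5%, 12.3% and 5.002%, and 1.39% for the CArG box. Neither the Actn1 window nor the second Csrp1 window held any of the 5 motifs. These are matches of letters and not sites shown to be bound.

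All 7 genes were strongly expressed. Their mean over the 16 libraries ranked from 124 (Cnn2) to 488 (Vcl) among the 12100 genes, and none of their values was 0. The highest library exceeded the lowest by 1.57-fold for Vcl and Flna, by 1.71-fold for Tagln2, by 1.73-fold for Csrp1, by 1.97-fold for Cnn2, by 2.36-fold for Actn1 and by 2.50-fold for Zyx. Differences below are on the log2(FPKM + 1) scale with their standard error from limma, a linear model fitted across all genes. A gene was called at an adjusted p below 0.05 (Benjamini-Hochberg over all genes tested). Several of the genes have close relatives (Flnc, Actn4, Tagln, Cnn1 and Cnn3), and how reads shared between relatives were assigned is not given in the sources used here.

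**Figure D1:**
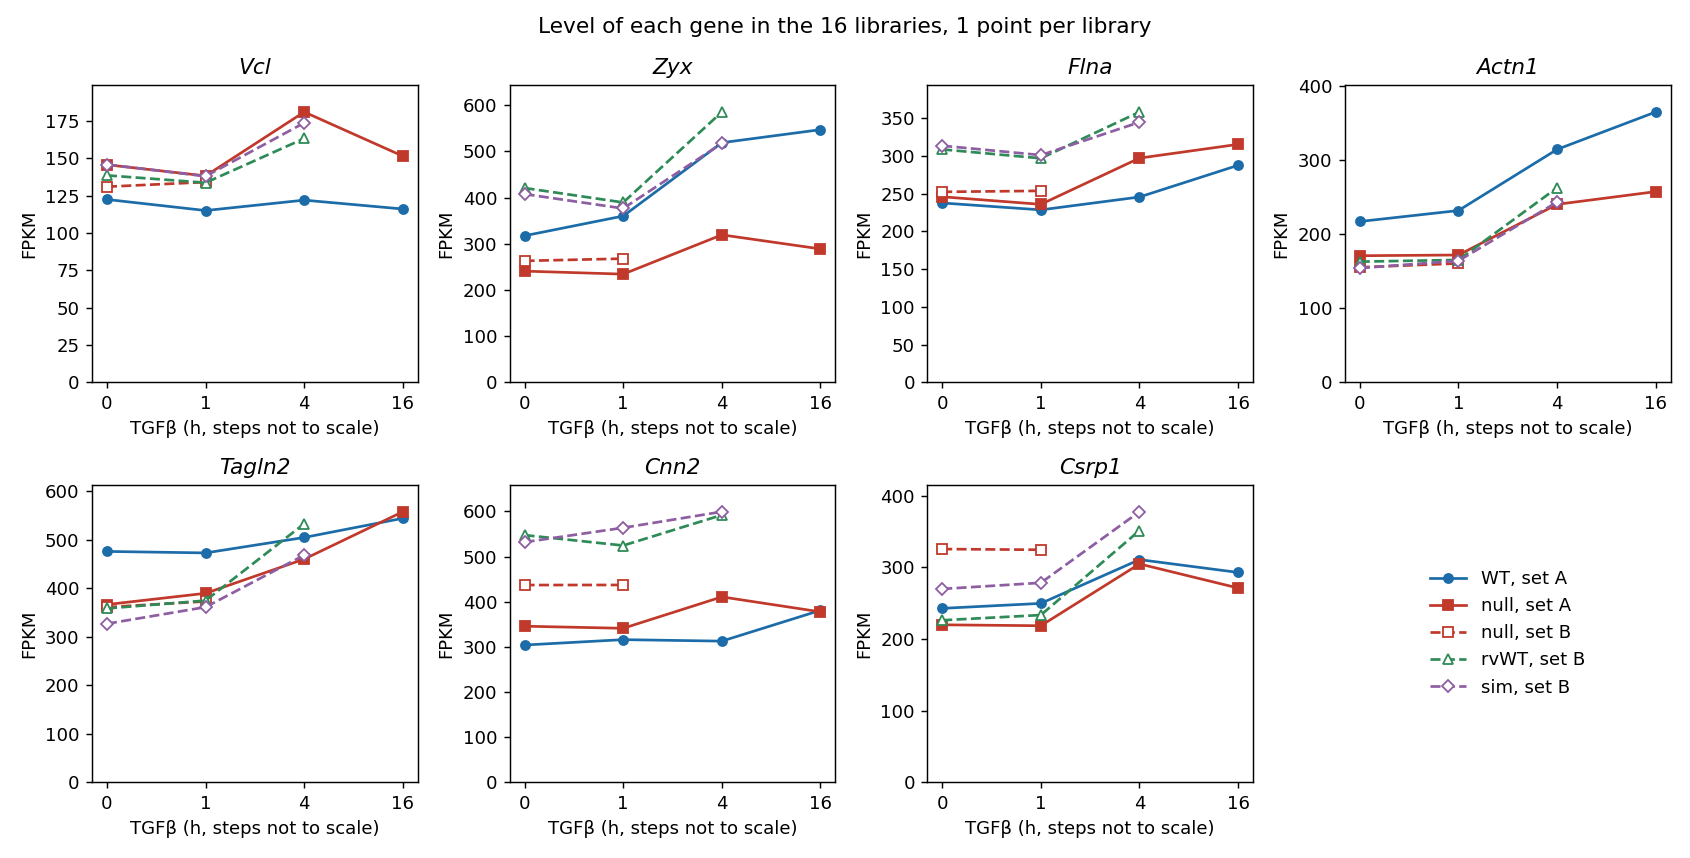
Level of each of the 7 genes in FPKM (vertical axes, from 0) against hours of TGFβ (horizontal axes, steps not to scale), with 1 point per library and a line for each series of set A (filled, solid) or set B (open, dashed). Zyx in null cells lies below every other line at each time, Vcl in WT lies below the others, and most lines turn upwards between 1 and 4 h.

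The adhesion and crosslinker genes were higher after 4 and 16 h of TGFβ, and at 1 h no difference was called. At 4 h, 6 of the 7 genes rose and none fell, in a comparison where 11.9% of 11045 tested genes rose and 27.1% fell. The largest rises were those of Actn1, Zyx and Csrp1, at 1.40- to 1.504-fold. The median of the 7 genes was 0.37, against -0.08 over all genes tested. At 16 h, measured in WT and null cells of set A alone, 6 again rose and none fell, with a median of 0.32 against -0.07 over all genes, of which 6.84% rose and 12.5% fell. At 1 h no gene passed, none had an unadjusted limma p below 0.05, and the differences ran from -0.05 to 0.07. The background at 1 h was 3.95% risen and 2.01% fallen. Among the called genes of the whole table the share that rose was 30.6% at 4 h and 35.3% at 16 h, and it became 49.2% and 50.7% with median-ratio scaling and 45.6% and 50.8% with quantile normalization.

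Vcl encodes vinculin, which links talin and α-catenin to actin and reinforces adhesions under load. In set A it stood at 123, 115, 122 and 116 FPKM in WT at 0, 1, 4 and 16 h, and at 146, 138, 181 and 152 in null cells. In set B it was at 139, 134 and 163 FPKM in rvWT at 0, 1 and 4 h, at 146, 138 and 174 in sim, and at 131 and 134 in null cells at 0 and 1 h. The 4 h library was the highest of the null, rvWT and sim series, while the 4 WT libraries stayed within 115 to 123 FPKM and below all 12 others. No share over all genes was taken for such a separation. Fitted over the series, Vcl rose at 4 h by 0.21 ± 0.05 (1.16-fold, limma adjusted p = 0.0101). At 16 h its difference from 0 h was 0.02 ± 0.07 (adjusted p = 0.868).

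Zyx encodes zyxin, a LIM-domain protein that moves from adhesions to strained stress fibres and recruits VASP for their repair. Its levels in WT were 318, 360.3, 519 and 547 FPKM at 0, 1, 4 and 16 h, against 241, 235, 319.6 and 289 in null cells of the same set. In set B, rvWT cells had 421, 389.7 and 585 FPKM at 0, 1 and 4 h, sim cells had 408, 377 and 518, and null cells had 263 and 268 at 0 and 1 h. At each time the null libraries were the lowest, and the 4 h level was above the 0 h level in all 4 series that held both. How many genes show that order of lines was not counted. Zyx rose by 0.49 ± 0.07 at 4 h (1.40-fold, limma adjusted p = 0.000811) and by 0.47 ± 0.09 at 16 h (adjusted p = 0.00638).

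Flna encodes filamin A, the flexible dimer that joins actin filaments at wide angles and holds integrins and many signalling proteins. WT cells showed 238, 228, 246 and 288 FPKM over the 4 times and null cells of set A 246, 236, 297 and 315. The set B values were 309, 297 and 358 FPKM in rvWT, 313, 301 and 345 in sim, and 252 and 254 in null cells. The infected lines were above the 2 null libraries at both shared times, an ordering for which no share over all genes was taken. With TGFβ, Flna rose by 0.17 ± 0.04 at 4 h (1.13-fold, limma adjusted p = 0.00796) and by 0.32 ± 0.05 at 16 h (1.25-fold, adjusted p = 0.00218). The 4 h call was lost under quantile normalization (0.11, adjusted p = 0.0772).

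Actn1 encodes α-actinin-1, the antiparallel crosslinker that spaces the filaments of stress fibres and binds both vinculin and zyxin. It had 217, 232, 314 and 365 FPKM in WT over the times and 171, 172, 240.3 and 257 in null cells of set A. In set B the values were 163, 165 and 263 FPKM in rvWT, 154, 164 and 243 in sim, and 155 and 161 in null cells. Within every series the libraries at 4 and 16 h were above those at 0 and 1 h. Its rise was the largest of the 7 genes, 0.59 ± 0.04 at 4 h (1.504-fold, limma adjusted p = 2.56e-05) and 0.69 ± 0.06 at 16 h (1.62-fold, adjusted p = 3.75e-05).

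Tagln2 and Cnn2 encode transgelin-2 and calponin-2, actin-binding relatives of the smooth muscle proteins transgelin and calponin-1 that are found in many other cells. Tagln2 was at 476, 473, 505 and 544 FPKM in WT, at 366, 389, 460.0 and 558 in null cells of set A, at 358, 375 and 533 in rvWT, at 327, 361 and 468 in sim, and at 361 and 373 in null cells of set B. WT cells had the highest Tagln2 at 0 and 1 h, and at 16 h the order of WT and null was the reverse. It rose by 0.37 ± 0.08 at 4 h (1.29-fold, limma adjusted p = 0.00496) and by 0.46 ± 0.10 at 16 h (adjusted p = 0.0112, but 0.208 without the null 16 h library). Cnn2 stood at 304, 316, 313 and 381 FPKM in WT, at 346, 341, 411 and 377 in null cells of set A, at 547, 524 and 592 in rvWT, at 532, 564 and 599 in sim, and at 437 at both times in null cells of set B. Every set B library was above every set A library for Cnn2, and how many other genes do so was not counted. Its value of 0.14 ± 0.05 at 4 h had an adjusted p of 0.0571 (0.0111 with median-ratio scaling). At 16 h Cnn2 rose by 0.22 ± 0.07 with a limma adjusted p of 0.048. That call was lost in 13 of 16 fits that left out 1 library, with an adjusted p of up to 0.371, reached without the WT 16 h library, where the difference was 0.10.

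Csrp1 encodes cysteine- and glycine-rich protein 1, a LIM-domain partner of α-actinin and zyxin. It was at 243, 249.5, 311 and 293 FPKM in WT and at 219.7, 218, 305 and 271 in null cells of set A. In set B it was at 226, 233 and 351 FPKM in rvWT, at 269.7, 278 and 377 in sim, and at 325 and 324 in null cells. The 4 h library was the highest of each series that reached that time. It rose by 0.48 ± 0.04 at 4 h (1.40-fold, limma adjusted p = 6.72e-05) and by 0.31 ± 0.06 at 16 h (1.24-fold, adjusted p = 0.00418, or 0.0524 without the null 16 h library).

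Taken series by series, 27 of 28 gene values at 4 h were above 0 h, the exception being Vcl in WT at -0.01. At 16 h 13 of 14 were above 0 h, again with Vcl in WT below, at -0.08, and at 1 h 19 of 35 were. Vcl apart, 6 of 7 genes were above 0 h in each of the 4 series at 4 h, where 14.9% of all genes tested were, and 6 of 7 in both series at 16 h, where 24.0% were. Fitted on set A alone, with 8 libraries, none of the 7 genes passed at 4 h and only Actn1 at 16 h (0.67, limma adjusted p = 0.0133). The 4 h values of that fit ran from 0.14 for Cnn2 to 0.56 for Zyx. Set B alone again gave 6 genes at 4 h.

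**Figure D2:**
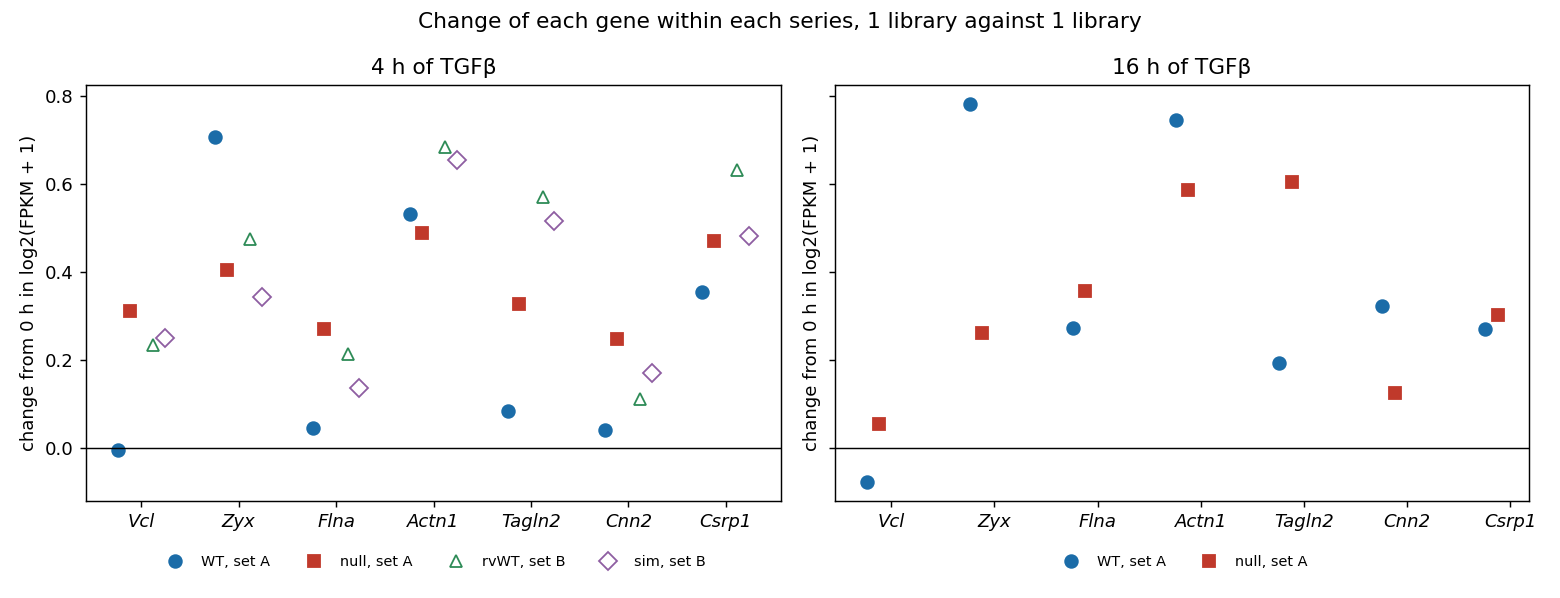
Change from 0 h in log2(FPKM + 1) (vertical axes) of each gene within each series at 4 h (left, 4 series) and 16 h (right, WT and null of set A), with each point 1 library against 1 library. All points but those of Vcl in WT lie above 0, and Zyx in WT is the highest point at both times, at 0.71 and 0.78.

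The lines differed most consistently in Zyx, which was lower in null cells than in WT, rvWT and sim cells. Arkadia goes with the isolate in set A and with infection in set B, so their effects cannot be told apart. Over all genes tested 37.4% were called higher in WT, 16.0% in rvWT and 13.9% in sim. No share was taken for genes higher in all 3. In set A, Zyx was higher in WT than in null cells by 0.66 ± 0.09 (1.58-fold, 95% interval 0.44 to 0.87, limma adjusted p = 0.00151), in 4 of 4 time-matched pairs. In set B it was higher than in null cells by 0.63 ± 0.06 in rvWT (1.55-fold, 95% interval 0.47 to 0.79, adjusted p = 0.00152) and by 0.54 ± 0.06 in sim (1.45-fold, 95% interval 0.38 to 0.70, adjusted p = 0.00289), each in 2 of 2 pairs. The rvWT and sim comparisons share their 2 null libraries. These calls were kept when any 1 library was left out. Without time as a block the value for sim was 0.69 (limma adjusted p = 0.0537). Null cells of set B have no 4 h library, so that fit mixes time with line. Null cells of set B were above those of set A by 0.13 at 0 h and 0.19 at 1 h, less than any of the 3 line differences.

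WT against null cells gave 3 of the 7 genes higher (Zyx, Actn1 and Csrp1) and 1 lower (Vcl). Of 10976 genes tested, 37.4% were higher and 30.1% lower, so a call is the common case in this comparison. The median of the 7 genes was 0.12, against 0.07 over all genes tested. Actn1 was higher in WT by 0.42 ± 0.04 (1.33-fold, limma adjusted p = 0.000537) in 4 of 4 pairs, although the fit without the time block gave an adjusted p of 0.110. Vcl was lower in WT by -0.36 ± 0.06 (0.777 times the null level, adjusted p = 0.00438), and in 0 of 4 pairs was it higher. Csrp1 was higher by 0.12 ± 0.04 (adjusted p = 0.0444), a call lost in 6 of 8 fits that left out 1 library (any but the 4 h ones) and with median-ratio scaling (0.04, adjusted p = 0.407). Tagln2 (0.19 ± 0.07, adjusted p = 0.0664), Flna (-0.13 ± 0.05, adjusted p = 0.0742) and Cnn2 (-0.17 ± 0.07, adjusted p = 0.0810) did not pass. Flna and Cnn2 passed as lower with median-ratio scaling, at -0.20 and -0.24. Tagln2 passed as higher with quantile normalization, at 0.40.

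Other features separated WT from the rest in the same libraries. Xist, the RNA of the inactive X chromosome, was at 1.79 to 2.75 FPKM in WT and at 20.7 to 51.3 in all other libraries. All 8 measured fibroblast markers were lower in WT than in null cells, by -0.18 for Vim to -5.06 for S100a4. Of the 4 measured epithelial markers 1 was higher and 3 were lower. Krt19, an epithelial keratin, was higher by 6.56 ± 0.06 (limma adjusted p = 4.02e-06), while Krt7, Krt8 and Krt18 were lower, by -2.51, -1.87 and -0.55. The part of these differences between the isolates in the values of the 7 genes was not tested.

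Null cells that had received wild-type Arkadia showed 3 of the 7 genes higher than null cells (Zyx, Cnn2 and Flna) and 1 lower (Csrp1). Of 10958 genes tested, 16.0% were higher and 22.6% lower. The medians were 0.07 for the 7 genes and -0.03 for all tested. Flna was higher by 0.27 ± 0.05 (1.21-fold, limma adjusted p = 0.0109), and Cnn2 by 0.30 ± 0.05 (1.23-fold, adjusted p = 0.0111). Csrp1 was lower by -0.47 ± 0.06 (0.720 times the null level, limma adjusted p = 0.00273), and by -0.52 and -0.47 in the 2 time-matched pairs. Without the time block the value was -0.30 (adjusted p = 0.396). Null cells of set B have no 4 h library, so that fit mixes time with line. Vcl, Actn1 and Tagln2 had differences of 0.03, 0.07 and 0.01, with 95% intervals of -0.09 to 0.16, -0.05 to 0.19 and -0.12 to 0.15. With quantile normalization Actn1 passed as higher (0.13, limma adjusted p = 0.0462). Without the rvWT 0 h library, or without either null library of set B, 2 of the 4 calls were left, those of Zyx and Csrp1. Of the 8 measured fibroblast markers 7 were higher in rvWT than in null cells (median 0.83), while 3 of 3 tested epithelial and 4 of 5 tested smooth muscle markers were lower. Acta2 was the smooth muscle marker that was higher, by 0.42. The summed smooth muscle level was 2777 to 3670 FPKM in rvWT and 2272 to 2336 in null cells of set B. The part of these markers in the values of the 7 genes was not tested.

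The sim line showed 3 genes higher (Zyx 0.54, Cnn2 0.32 ± 0.05 and Flna 0.27 ± 0.05) and Csrp1 lower (-0.27 ± 0.06), with limma adjusted p of 0.00289, 0.00943, 0.0127 and 0.0193. The background was 13.9% higher and 20.8% lower, and the medians were 0.10 for the 7 genes and -0.02 for all. Vcl, Actn1 and Tagln2 were at 0.10, -0.00014 and -0.11 (adjusted p 0.163, 0.998 and 0.173). With quantile normalization Tagln2 passed as lower (-0.13, limma adjusted p = 0.0484). Without either null library of set B, 1 call was left, that of Zyx, and without the sim 0 h library Zyx and Cnn2 were left. Without the time block, in a fit that mixes time with line, Csrp1 was at -0.09 (limma adjusted p = 0.824) and Flna at 0.33 (adjusted p = 0.0572). In the 2 time-matched pairs Csrp1 was at -0.27 and -0.22. In sim, 7 of the 8 fibroblast markers were higher than in null cells and 1 lower (median 0.72), and 3 of 3 tested epithelial and 3 of 5 tested smooth muscle markers were lower. Acta2 was higher, by 0.60, and the summed smooth muscle level was 3275 to 3953 FPKM in sim. The part of these markers was likewise not tested. Among all called genes the share that was higher was 41.5% for rvWT and 40.1% for sim, and 54.3% and 52.3% with quantile normalization.

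For Csrp1 and Cnn2 the null libraries of the sets differed by more than the lines did within set B. Csrp1 in null cells was at 325 FPKM in set B and 219.7 in set A at 0 h, a difference of 0.56 (0.57 at 1 h) that exceeded its rvWT and sim differences of -0.47 and -0.27. The rvWT value at 0 h, 226 FPKM, lay close to the null value of set A. Cnn2 in null cells was higher in set B by 0.34 at 0 h and 0.36 at 1 h, against line differences of 0.30 and 0.32. Over the 11045 genes tested the median absolute difference between the null libraries of the sets was 0.22 at 0 h. At least as large a difference as that of Csrp1 was seen in 11.2% of genes, and as that of Cnn2 in 30.9%. For the other 5 genes the sets differed in null cells by -0.15 to 0.19. Whether this set difference bears on the line differences within set B was not tested.

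**Figure D3:**
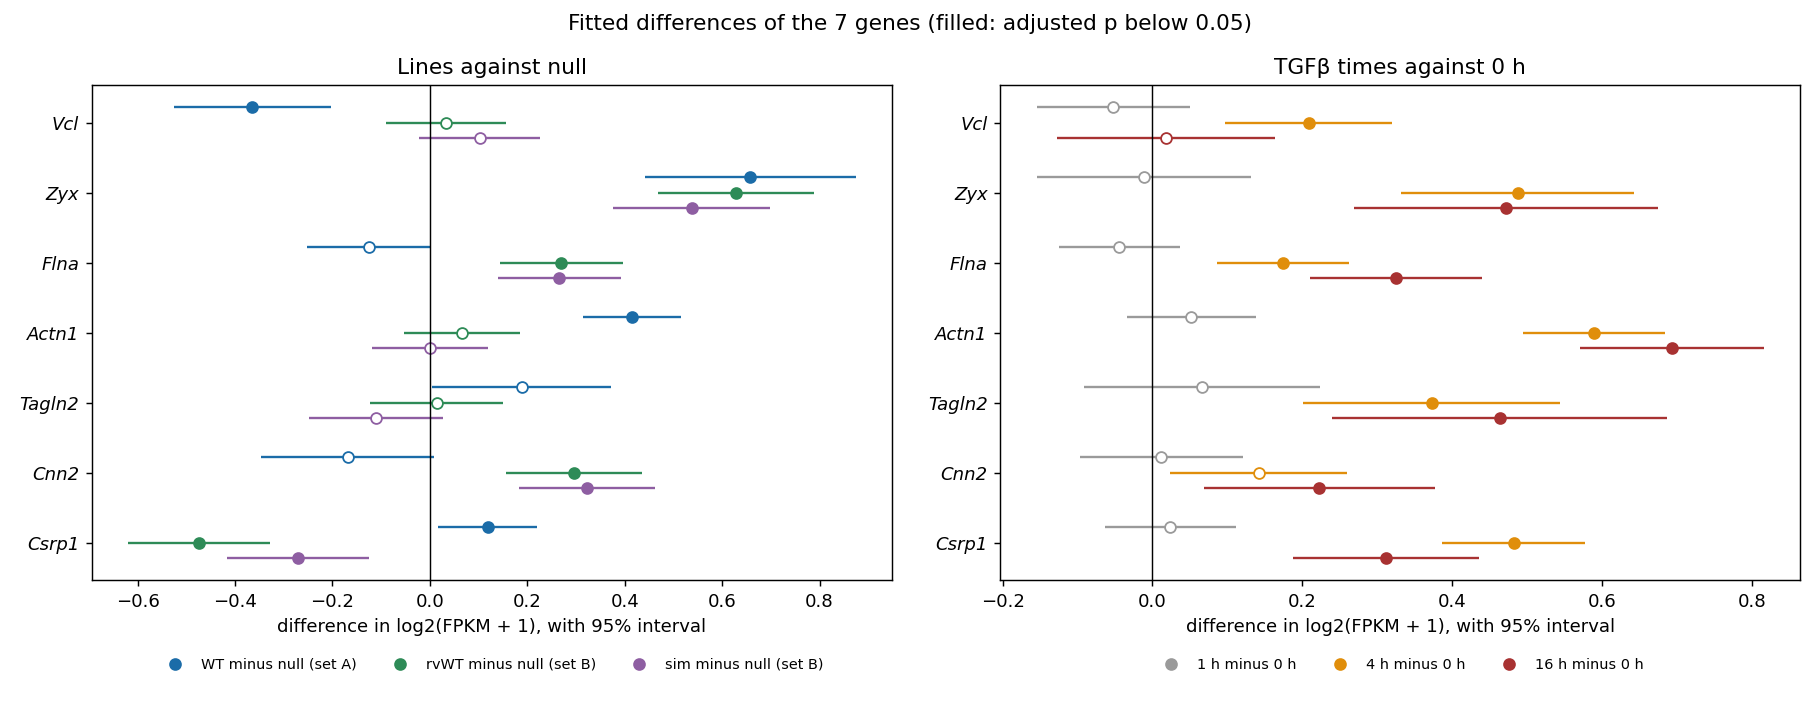
Fitted differences in log2(FPKM + 1) (horizontal axes) with 95% intervals for each gene, for lines against null on the left and for TGFβ times against 0 h on the right, with filled points at an adjusted p below 0.05. Zyx is the gene with 3 filled points above 0 on the left, Csrp1 lies on both sides of 0 there, and all filled points on the right lie above 0.

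The sim mutant and wild-type Arkadia were compared directly in set B. None of the 7 genes passed in limma, against 0.356% of genes higher and 0.137% lower over the table. Those shares are at the adjusted p. At an unadjusted p below 0.05, 2 of the 7 did, a bound for which no share over all genes was taken. Csrp1 was higher in sim by 0.20 (95% interval 0.08 to 0.33, adjusted p = 0.17), in 3 of 3 pairs. Tagln2 was at -0.12 (95% interval -0.24 to -0.01, adjusted p = 0.284), lower in sim in 3 of 3 pairs. For Zyx the difference was -0.09, with a 95% interval of -0.23 to 0.05, and for Flna it was -0.004, with an interval of -0.11 to 0.10. Rnf111 itself was at 103 to 126 FPKM in rvWT and at 56.0 to 62.1 in sim, so the mutation and the level of Arkadia moved together and cannot be told apart.

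Whether the response to TGFβ differed by line was tested with a term for each line at 4 h or later, against null cells. No gene of the 7 passed for WT, rvWT or sim in limma. For WT the background was 0.217% of genes with a larger and 0.344% with a smaller response, for rvWT 0.0634% and 0.362%, and for sim 0.0181% and 0.0453%. Those shares are at the adjusted p, and no share over all genes was taken at an unadjusted p. At an unadjusted p below 0.05 there were 4 genes for WT, 3 for rvWT and 0 for sim. In WT these were Zyx, with a difference in response of 0.30 (adjusted p = 0.273), Vcl with -0.22 (adjusted p = 0.233), Flna with -0.16 (adjusted p = 0.290) and Tagln2 with -0.28 (adjusted p = 0.150). The Zyx change in WT was 0.71 at 4 h and 0.78 at 16 h, and in null cells 0.41 and 0.26. The Tagln2 change in WT was 0.08 and 0.19, and in null cells 0.33 and 0.60. Without the WT 4 h or the null 4 h library of set A, the Tagln2 difference passed (-0.36, adjusted p = 0.0341 and 0.0344). For rvWT they were Actn1 (0.22, adjusted p = 0.143), Tagln2 (0.21, adjusted p = 0.216) and Csrp1 (0.16, adjusted p = 0.211). The late null libraries belong to set A and those of rvWT and sim to set B, so line and set cannot be told apart in those terms.

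The relatives of the 7 genes did not share one direction between lines. Of 18 paralogs 15 were in the table, and 14 were tested in set A. There 4 were higher in WT than in null cells and 4 lower, with a median of -0.05. Among all genes tested 37.4% were higher and 30.1% lower, with a median of 0.07. Cnn1 and Tagln, the smooth muscle calponin and transgelin, were higher by 2.09 ± 0.09 and 1.83 ± 0.08 (limma adjusted p = 6.28e-05 and 7.59e-05). Csrp2, the relative of Csrp1, was lower by -1.43 ± 0.10, and filamin C (Flnc) by -0.61 ± 0.05. Against the null cells of set B, 1 of 13 was higher and 6 lower in rvWT, and 1 was higher and 7 lower in sim. The shares over all genes were 16.0% and 22.6% for rvWT, and 13.9% and 20.8% for sim. Csrp2 was the one higher in each, by 0.68 and 0.79. Tagln was lower by -1.35 and -0.95, and Flnc by -0.90 and -0.98. With TGFβ, 7 of 14 paralogs rose and 1 fell at 4 h, and 6 rose and 2 fell at 16 h. Among all genes tested 11.9% rose and 27.1% fell at 4 h, and 6.84% rose and 12.5% fell at 16 h. Csrp2 rose by 0.94 and 1.09, and Tagln by 0.54 and 1.34 at the 2 times. Actn4, the second non-muscle α-actinin, rose by 0.29 at 4 h and was at 0.02 at 16 h (adjusted p = 0.849). The α-catenin relative Ctnnal1 fell, by -0.73 and -0.71. At 1 h the zyxin relatives Ajuba (0.37) and Wtip (0.29) rose.

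Other plaque proteins were read from a list of 34 genes, 31 of them tested. This list and those below were chosen with earlier results of these data known. At 4 h of TGFβ 11 rose and 2 fell (median 0.12), and at 16 h 7 rose and 1 fell (median 0.14). Over all genes 11.9% rose and 27.1% fell at 4 h (median -0.08), and 6.84% and 12.5% at 16 h (median -0.07). The PDZ-LIM proteins Pdlim7 and Pdlim1 rose at 4 h by 0.92 ± 0.06 and 1.04 ± 0.08 (limma adjusted p = 8.02e-06 and 4.39e-05). Paxillin (Pxn) rose by 0.57 and VASP (Vasp), the partner of zyxin, by 0.41. Sorbs3, which encodes the vinculin-binding protein vinexin, fell by -0.98 ± 0.08. Talin-1 (Tln1), through which vinculin meets integrins, was at -0.01 (adjusted p = 0.853). Already at 1 h 6 of these genes rose (3.95% over all genes), led by the scaffolds Nedd9 (1.00) and Bcar1 (0.67). Between lines, 7 were higher and 15 lower in WT than in null cells (median -0.20). In rvWT 4 were higher and 10 lower (median -0.07), and in sim 6 were higher and 8 lower (median -0.05). Over all genes the shares higher and lower were 37.4% and 30.1% for WT, 16.0% and 22.6% for rvWT, and 13.9% and 20.8% for sim. Vinexin was lower in each comparison (-1.55, -0.99 and -1.12), and Tln1 was lower in WT (-0.86 ± 0.06).

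Actin bundling and stress fibre genes (27 tested) followed with 10 rises and 5 falls at 4 h, and 8 rises and 3 falls at 16 h. Among all genes tested 11.9% rose and 27.1% fell at 4 h, and 6.84% and 12.5% at 16 h. The tropomyosin Tpm1 rose by 0.32 and 0.85, moesin (Msn), which ties actin to the membrane, by 0.50 and 0.79, and at 4 h palladin (Palld) by 0.98 and the non-muscle myosin heavy chain Myh9 by 0.55. At 1 h synaptopodin (Synpo) alone rose, by 0.55, with 3.95% risen over all genes. In WT against null cells 11 were higher, among them Dbn1 (1.83) and Myh10 (1.60), and 9 lower, among them Fhod1 (-1.22) and Tpm1 (-1.01). The counts were 7 and 7 for rvWT and 6 and 6 for sim, where ezrin (Ezr) was lower by -1.34 and -1.21. Over all genes the shares higher and lower were 37.4% and 30.1% for WT, 16.0% and 22.6% for rvWT, and 13.9% and 20.8% for sim. For WT the list was thus near the shares of all genes.

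Of 23 tested actins and actin turnover genes 9 rose and 2 fell at 4 h, and 7 rose and 1 fell at 16 h, with none called at 1 h. Among all genes tested 11.9% rose and 27.1% fell at 4 h, and 6.84% and 12.5% at 16 h. β-actin (Actb) rose by 0.50 ± 0.07 and γ-actin (Actg1) by 0.34 at 4 h, and smooth muscle actin (Acta2) by 1.08 ± 0.11 at 16 h. WT cells had 5 of these genes higher and 13 lower than null cells, among them the capping protein Capg (-3.87), and the median was -0.27. The rvWT counts were 4 and 6 and the sim counts 4 and 4. Over all genes the shares higher and lower were 37.4% and 30.1% for WT, 16.0% and 22.6% for rvWT, and 13.9% and 20.8% for sim. Against rvWT 1 gene of this list was higher in sim, Actg2 (0.67), where 0.356% of all genes were. In the list of SRF, its cofactors and other SRF targets, 15 of 22 rose at 4 h and 12 at 16 h, and none fell, with medians of 0.56 and 0.60. Some of its genes, Tpm1 among them, are also counted in a list above, so the counts of the lists are not independent. Srf itself rose by 0.74 ± 0.09 at 4 h and was at 0.11 at 16 h (limma adjusted p = 0.540), and the integrin subunit Itga5 rose by 1.56 and 1.36. The list was already at 6 risen and 1 fallen at 1 h, led by Junb (2.52), against 3.95% and 2.01% of all genes. Its counts were 8 higher and 11 lower in WT, 5 and 8 of 21 in rvWT, and 6 and 7 in sim. Of the SRF cofactors, Mkl1 was lower in WT than in null cells by -0.43 and Mkl2 was higher by 0.20.

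By the median correlation of their pairs, the 7 genes were more alike in time than in level. Across the 16 libraries the 21 pairs had a Pearson r of log2(FPKM + 1) from -0.33 (Tagln2 with Cnn2) to 0.93 (Actn1 with Tagln2), with a median of 0.39 and 18 positive. After the mean of each series was removed, all 21 were positive, from 0.57 to 0.94 with a median of 0.81. The libraries share lines, sets and times, so these values are a description of 16 dependent points. The deviations from the series means hold time and scatter alone. Most of the 7 genes rose after TGFβ, so mostly positive r values were already given by those rises. The genes were chosen with earlier results of these data known, and no r was taken for other gene pairs. Whether the 7 genes are more alike than other genes was therefore not tested.

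**Figure D4:**
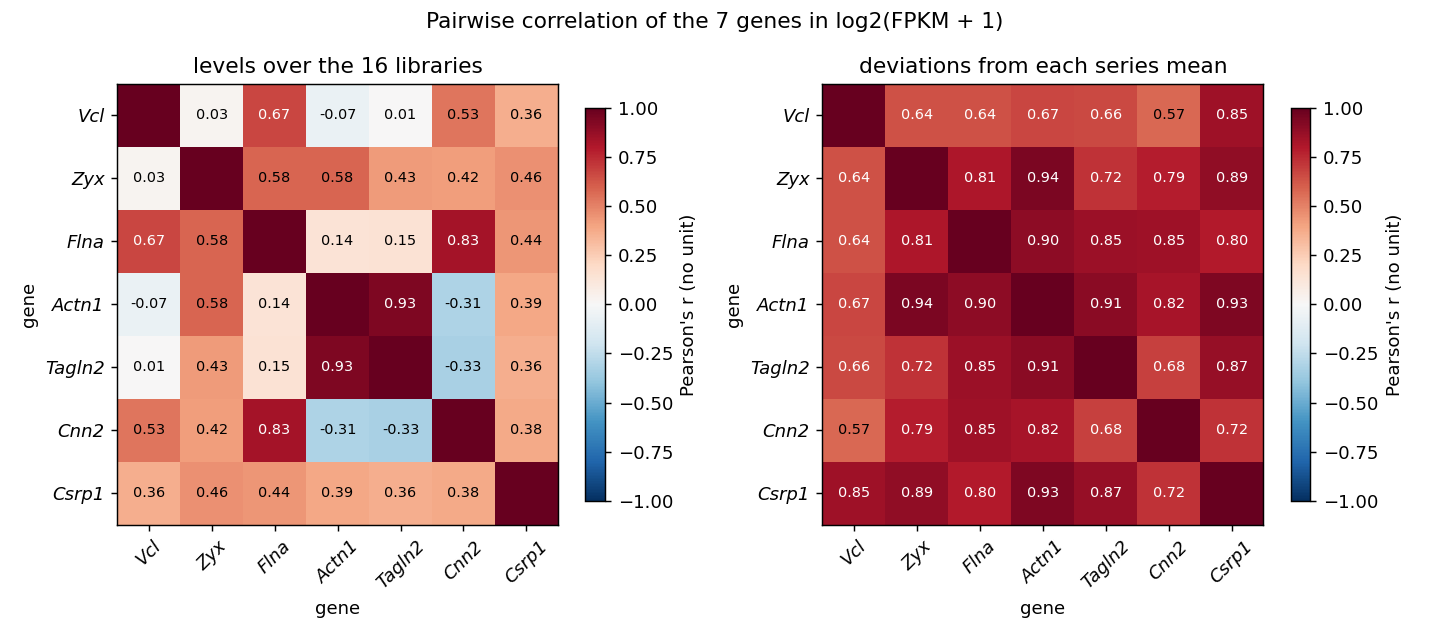
Pearson's r between each pair of the 7 genes (axes, gene names; colour from -1 in blue to 1 in red) for levels over the 16 libraries on the left and for deviations from each series mean on the right. On the left the pairs run from -0.33 to 0.93, and on the right all 21 are positive.

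Among 8287 genes with a mean of at least 5 FPKM, the profiles most like each gene over the 16 libraries were as follows. Those of Actn1 were Msn (r = 0.97) and Mast4 (0.96), and those of Flna were Tgfb1i1 (0.96), which encodes the adhesion protein Hic-5, and Fstl1 (0.93). Tagln2 had Ece2 (0.95) among its nearest, and Zyx was nearest to Fbln2 (0.94) and Ykt6 (0.93). The nearest to Vcl were Plcxd2 (0.96) and Luc7l (0.94), and to Cnn2 Copz2 (0.97) and Psmb10 (0.97). Csrp1 had no such close match, with Tmem214 at 0.85 and Tmem115 at 0.83. For the mean standardised profile of the 7 genes the nearest were Dram1 (0.96), Pdlim7 (0.94), Fblim1 (0.94), which encodes the filamin-binding adhesion protein migfilin, Nfkbie (0.94) and Cxcl10 (0.93).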

How the data were processed

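The data are 16 RNA libraries from fibroblasts. The authors deposited 1 table of FPKM values. The submitters' processing notes name Cufflinks 2.2.1, SAMtools, STAR 2.3.0e and CASAVA 1.8.2 and the build mm9, without roles. Annotation, multi-mapping and normalization settings were not stated in the sources used here. Columns were matched to samples by title, and 0 columns of values had no sample. Of 193600 values, 214 lay between 0 and 0.0001 FPKM, so values are estimates from which reads cannot be counted.

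Genes whose mean reached 1 FPKM over the libraries of a fit were tested on the log2(FPKM + 1) scale in R 4.3.3 with limma 3.58.1, using a trended prior variance (statmod 1.5.0 installed), and p-values were adjusted over all tested genes by Benjamini-Hochberg. The log2 scale with a pseudocount understates changes of low genes. Line fits had time as a block within a set. Time fits had the 5 series as a block over 16 libraries. Response differences had a term per line at 4 h or later. The code was tested on simulated data. The alternatives changed the pseudocount (0.1, 5), the filter (none, 5 FPKM), the scaling (median-ratio, quantile), the prior variance (no trend, robust), the time block (dropped) and the libraries (a single set, or all but 1).

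The 7 genes and the lists were chosen with earlier results of these data known. Named beyond the 7 genes were the paralogs that passed, the genes with the smallest p in each other list and the 2 genes of most similar profile (5 for the mean profile), and 1 such gene is not reported here. Further genes of the lists (Srf, Mkl1, Mkl2, Itga5 at 16 h, Pxn, Vasp, Tln1 at 4 h, Actn4) were named for their known roles after their values were seen. Promoters came from RefSeq windows of GRCm38.p6.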

Additional observations from a re-analysis of the deposited data

Results flagged for a closer look

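Vcl was the one gene of the 7 whose change from 0 h went one way in WT and the other way in null cells at both late times. Its log2 change in WT was -0.01 at 4 h and -0.08 at 16 h, and in null cells of set A 0.31 and 0.06. The difference itself, fitted over 4 h and later, was -0.217 (95% interval -0.40 to -0.04, limma adjusted p = 0.233). With set A alone the value was the same and the adjusted p was 0.563.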

How the results depend on the processing

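Over the 7 genes, 1512 values were refitted under the alternatives. The call was the same in 1437, was lost in 60 and was gained in 15, and no called value turned its sign. No scaling moved the median of all genes by more than 0.1. Set A alone called 12 genes at 1 h (658 with all libraries), 16 at 4 h (4307) and 245 at 16 h (2139), and 0 and 1 of the 7 genes at 4 and 16 h (6 and 6), with fewer libraries in the fit. Without the time block the counts were 2200 for rvWT (4230), 1777 for sim (3807) and 7 for sim against rvWT (54, or 93 with robust variances), and of the 7 genes 2 for WT and 1 for sim (4 and 4). For rvWT and sim against null cells that fit mixes time with line, because the set B null series ends at 1 h. The response differences rested on few calls. For rvWT (47 genes) the count was 195 with a pseudocount of 0.1, 110 with a minimum of 5 FPKM, 21 with quantile normalization, 103 without trend and 171 with robust variances. For WT (62) it was 122 with a pseudocount of 5, 38 with a minimum of 5 FPKM and 1 with set A alone, and for sim (7) it was 11, 0 and, with quantile normalization, 12. With each library left out in turn, all-gene counts ran from 400 to 815 at 1 h, 2658 to 4779 at 4 h, 640 to 3026 at 16 h, 1946 to 4249 for rvWT, 1581 to 3854 for sim, 1 to 10 for sim against rvWT, and for the response differences 0 to 1305 (WT), 6 to 798 (rvWT) and 2 to 159 (sim). The lowest at 16 h came without the null 16 h library, and the lowest for rvWT and sim without the set B null library at 0 h. Of the 7 genes 2 to 4 were called for rvWT and 1 to 4 for sim, and in the WT response difference, where none was called with all libraries, 0 to 1 were (Tagln2, gained without a 4 h library of set A). The cause of these shifts was not tested. The depth behind the FPKM values is unknown.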
